A study of Drosophila melanogaster with 2 samples.

Results

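The genes described here are 9 components of the Jun N-terminal kinase (JNK) pathway and of dorsal closure in the Drosophila melanogaster embryo: the kinase genes msn, hep and bsk, the phosphatase gene puc, the AP-1 genes kay and Jra, and the genes ush, pnr and peb for transcription factors of the amnioserosa and dorsal ectoderm. They were taken as a list by name from 13968 annotated protein-coding genes. For each gene, the chromatin regions considered were those whose summit, the position of highest signal, lay in the gene body or within 10 kb of it. Whole embryos aged 0 to 24 h of a rib-GFP strain, whose insertion targets rib, were used for chromatin immunoprecipitation and sequencing in 1 group of 2 biological replicates. The description in the labels names a rib-eGFP fusion and an anti-GFP antibody, while the antibody field names rib. No untagged or control embryos were analysed here, so no background measured in controls stands beside the values. Embryos of all stages and all tissues were pooled, so a region cannot be assigned to the leading edge, the amnioserosa or any other cell type, and the presence of the tagged protein at a gene says nothing of that gene's expression.

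In dorsal closure, the epidermal sheets on either side of the embryo move over the amnioserosa, a squamous tissue that covers the dorsal gap, and meet at the dorsal midline. In the leading row of epidermal cells the kinase Msn acts at the head of a cascade in which Hep phosphorylates the JNK Bsk, and Bsk acts through the AP-1 proteins Kay (Fos) and Jra (Jun). AP-1 then switches on dpp, which encodes a signalling ligand, and puc, whose product dephosphorylates Bsk and so limits the pathway. The zinc-finger proteins Ush and Peb maintain the amnioserosa, and Pnr, a GATA factor whose partner is Ush, patterns the dorsal ectoderm. The gene rib encodes a BTB-domain nuclear protein that shapes the tracheae and salivary glands, and embryos that lack it also have defects in dorsal closure.

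A region is an interval in which reads were enriched, reported with a signal, the peak caller's own measure of strength, whose scaling is not stated. The score in the lists is a rescaled irreproducible discovery rate (IDR), and 830 is the value that an IDR of 0.01 takes on this scale. The set of 5195 regions used below joined the 4606 thresholded regions of the series with 589 regions of its ranked lists that reached that score and overlapped none of the 4606. The lists hold no read counts, so the depth of either replicate is unknown. The thresholded list of replicate 1 held 3082 regions and that of replicate 2 held 2181. Positions are on dm6, counted from 1, and a distance is to the nearest annotated transcription start of the gene named.

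The 9 genes had 44 regions, and 8 of the 9 had at least 1, where 61.2% of all protein-coding genes had one in the same window. At their own starts, within 500 bp, 5 of the 9 (msn, puc, kay, ush and peb) had a region, against 20.1% of all genes. In the thresholded list alone, 8 of the 9 had a region against 58.4% of all genes, and 4 had one at a start against 18.2%. The ranked lists gave 12 of the 44 regions: 7 at ush, 3 at puc, 1 at msn and 1 at pnr. Of the 44, 28 lay in the body of the gene and 21 of these in an intron of it, 8 lay upstream and 8 downstream. Many lay at neighbouring genes: 9 were within 500 bp of a start of the listed gene, 10 were within 500 bp of a start of another gene only, and 25 were at neither. The 25 include regions only a little past that distance, at 548 to 779 bp from a start of another gene. The signal of the 44 regions had a median of 91.5 (quartiles 76.2 and 117), and that of all 5195 had a median of 90.5 (quartiles 73.5 and 126), so most regions at these genes were of ordinary strength.

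**Figure D1:**
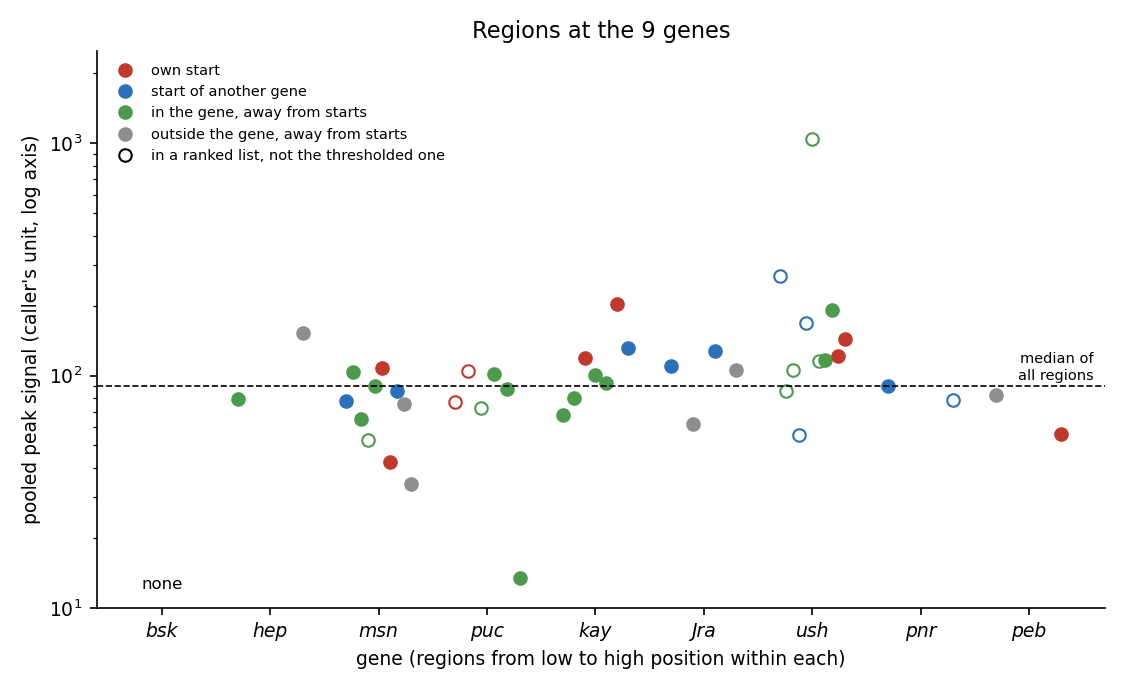
Pooled signal of each region (log axis, in the peak caller's unit) in the windows of the 9 genes, ordered by position within a gene. Colours give the place of the summit, open circles mark regions taken from a ranked list, and the dashed line is the median of all 5195 regions, 90.5. One ush region at 1045 stands above all others, and bsk has none.

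The kinase genes differed widely. The gene msn (FBgn0010909), which encodes the Ste20-family kinase Misshapen, spans 3L 2554847 to 2586540 on the minus strand, and its window held 10 regions. At least so many were found at 0.558% of all genes and 2.97% of the 1985 genes with a body over 10 kb. The highest, with a signal of 107, had its summit 141 bp inside the start that 7 of 8 msn transcripts use, in the 5′ UTR. It had a signal of 72.3 in replicate 1 and 44.7 in replicate 2 and passed the threshold in both. A second summit 83 bp upstream of that start, with a signal of 42.4, belonged to an overlapping region, with 2.66 in replicate 1 and 44.7 in replicate 2, so the start carried a single stretch called as 2 regions.

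Another 4 msn regions lay in introns, at 1690, 4653, 9121 and 13093 bp from the nearest start, with signals of 90.2, 52.7, 65.2 and 104. In replicate 1 these 4 regions had signals of 65.5, 38.4, 53.9 and 64.0, and in replicate 2 they had 29.2, 33.3, 26.6 and 35.0. All 4 were higher in replicate 1, and 3 of them passed the threshold there while none passed it in replicate 2. Most regions of the whole set were higher in replicate 1 too. The log2 ratio of replicate 1 to replicate 2 had a lower quartile of 0.036 over the 5157 regions with a value in both. Of all 5195 regions, 25.4% passed in replicate 1 only and 9.87% in replicate 2 only. The other 4 regions were outside msn. One was 37 bp inside a start of Spn, the spinophilin gene (signal 77.7), and one was 19 bp inside the start of RpL8, a ribosomal protein gene (signal 86.2). The remaining pair overlapped each other in an intron of dos, which encodes an adaptor of receptor tyrosine kinase signalling. Their summits were 575 and 779 bp inside the dos start, with signals of 75.2 and 34.1. The RpL8 and dos regions passed in replicate 2 only, and the Spn region in replicate 1 only.

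The 13093 bp region of msn held, within 50 bp of its summit, the letters TGACTCA, which fit the AP-1 word TGANTCA, and AGATAA in 2 places. The sequence is shown because it is 1 of only 2 windows at these genes with the AP-1 word. It runs over chr3L:2573111-2573211 on the plus strand of dm6, with the words in capitals.
msn intron: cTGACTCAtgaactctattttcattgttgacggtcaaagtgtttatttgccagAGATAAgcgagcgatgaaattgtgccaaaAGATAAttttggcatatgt

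The gene hep (FBgn0010303), which encodes the kinase that activates Bsk, spans X 13079205 to 13090434 on the minus strand and had 2 regions. The one in hep lay in an intron 2868 bp from the single annotated start, with a signal of 79.1, and had 46.6 in replicate 1 and 40.1 in replicate 2 without passing the threshold in either. The other, with a signal of 152, was 9653 bp upstream in an intron of Chpf, a gene for a chondroitin-polymerizing factor, and had 74.8 in replicate 1 and 76.6 in replicate 2, past the threshold in both. The stronger and more reproducible region of the hep window was thus inside another gene. No region reached the score at the hep start, where the highest ranked region had a signal of 40.9 and a score of 176.

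The gene bsk (FBgn0000229) encodes the JNK itself, spans 2L 10247502 to 10250501 on the minus strand, and was the gene of the 9 without a region. The nearest summit of the set was 18404 bp from a bsk start. The ranked lists held 36 regions below the score in the bsk window, the highest with a signal of 64.9 and a score of 565 at 11347 bp from a start, and at the start itself the signal was 41.7 with a score of 232. The window of bsk is 23 kb, among the 3 shortest of the 9.

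The phosphatase gene puc (FBgn0243512), a transcriptional target of JNK widely used as its reporter, spans 3R 8105332 to 8122294 on the plus strand. All 6 of its regions lay within the gene and none was at the start of another gene. Both annotated starts had a region. The summit 78 bp inside the start of puc-RA had a signal of 76.6, with 53.2 in replicate 1 and 25.1 in replicate 2. The summit 71 bp inside the start of puc-RB had 105, with 64.5 in replicate 1 and 38.7 in replicate 2. Both start regions come from a ranked list and are in neither the thresholded nor the conservative list of the series, so counting the thresholded list alone would leave puc without a start region. Another region of the ranked lists, 1722 bp inside the puc-RB start (signal 72.5), is in the conservative list.

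Deeper in puc, a summit 7643 bp from the nearest start had a signal of 102, with 75.0 in replicate 1 and 47.0 in replicate 2. It was the only puc region found in the thresholded lists of both replicates. A pair of overlapping regions followed at 8848 and 9048 bp, with signals of 87.4 and 13.5. Replicate 1 had 66.0 at this pair, past its threshold, and replicate 2 had 31.3 and 3.15, not past it. All 6 puc regions were lower in replicate 2. The median log2 ratio of replicate 1 to replicate 2 was 0.91 at puc and 0.46 over all 5157 regions with a value in both. The windows of both intronic summits are shown because they are the strongest puc sequence away from its starts. They run over chr3R:8114081-8114181 and chr3R:8115286-8115386 on the plus strand, with any of the words searched, on either strand, in capitals. The first holds GAGAG in overlapping copies, and the second holds GAGAG once and each of the GATA words named further on once.
puc intron, 7643 bp: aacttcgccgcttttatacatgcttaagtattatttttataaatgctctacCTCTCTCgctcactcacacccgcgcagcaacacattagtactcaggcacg
puc intron, 8848 bp: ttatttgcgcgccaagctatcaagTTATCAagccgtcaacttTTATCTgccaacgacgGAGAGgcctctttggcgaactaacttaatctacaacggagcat

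Of the AP-1 genes, kay was the one with regions at its own promoters. The gene kay (FBgn0001297), which encodes the Fos protein, spans 3R 29765995 to 29794113 on the plus strand and has 4 annotated starts. The summit 43 bp inside the start of kay-RB, had a signal of 203, rank 433 of 5195, with 125 in replicate 1 and 70.9 in replicate 2. The summit 87 bp inside the start shared by kay-RA and kay-RG had 118, with 78.7 in replicate 1 and 38.8 in replicate 2. Both passed the threshold in both replicates. The first start, of kay-RD, and the last, of kay-RF, had no region, and the nearest summits were 5106 and 6284 bp away. Within 500 bp of the kay starts, the highest ranked region below the score had a signal of 28.0 and a score of 207.

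A further 4 kay regions lay in introns. Around the kay-RA start, summits at 1791 and 1128 bp upstream had signals of 67.9 and 80.2 and passed in neither replicate, while one 1128 bp downstream had 100.3, with 52.9 in replicate 1 and 61.8 in replicate 2, and passed in both. The region between the inner starts, nearest to the start of fig, a phosphatase gene inside kay, had 92.8 and passed in replicate 1 only. The seventh region of the window, 8933 bp beyond the end of kay, lay 101 bp upstream of Etfb, a mitochondrial electron-transfer gene, and 150 bp upstream of CG7789 (signal 131, past the threshold in both replicates). The window 1128 bp upstream is shown because it holds the letters TGAGTCA, again the AP-1 word, in a gene for an AP-1 subunit. It runs over chr3R:29771714-29771814 on the plus strand, with the word in capitals.
kay intron, 1128 bp upstream: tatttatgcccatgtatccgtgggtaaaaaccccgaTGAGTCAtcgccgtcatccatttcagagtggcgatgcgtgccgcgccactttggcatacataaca

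The gene Jra (FBgn0001291), which encodes the Jun protein, spans 2R 10096480 to 10098556 on the plus strand and had 4 regions, all of them beyond its end. They lay at 14-3-3zeta, which encodes a phosphoserine-binding adaptor. The summit with a signal of 110 was 26 bp upstream of the first 14-3-3zeta start and 61 bp upstream of RpLP0-like, and the one with 128 was 62 bp upstream of a further 14-3-3zeta start. The remaining 2, with 61.8 and 106, lay in introns of the same gene, 548 and 731 bp inside its nearest starts. The region of 128 had 102 in replicate 1 and 44.8 in replicate 2 and was the one past the threshold in both. The nearest summit to a Jra start was 2723 bp away, and the highest ranked region near that start (261 bp, signal 66.0) had a score of 605.

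**Figure D2:**
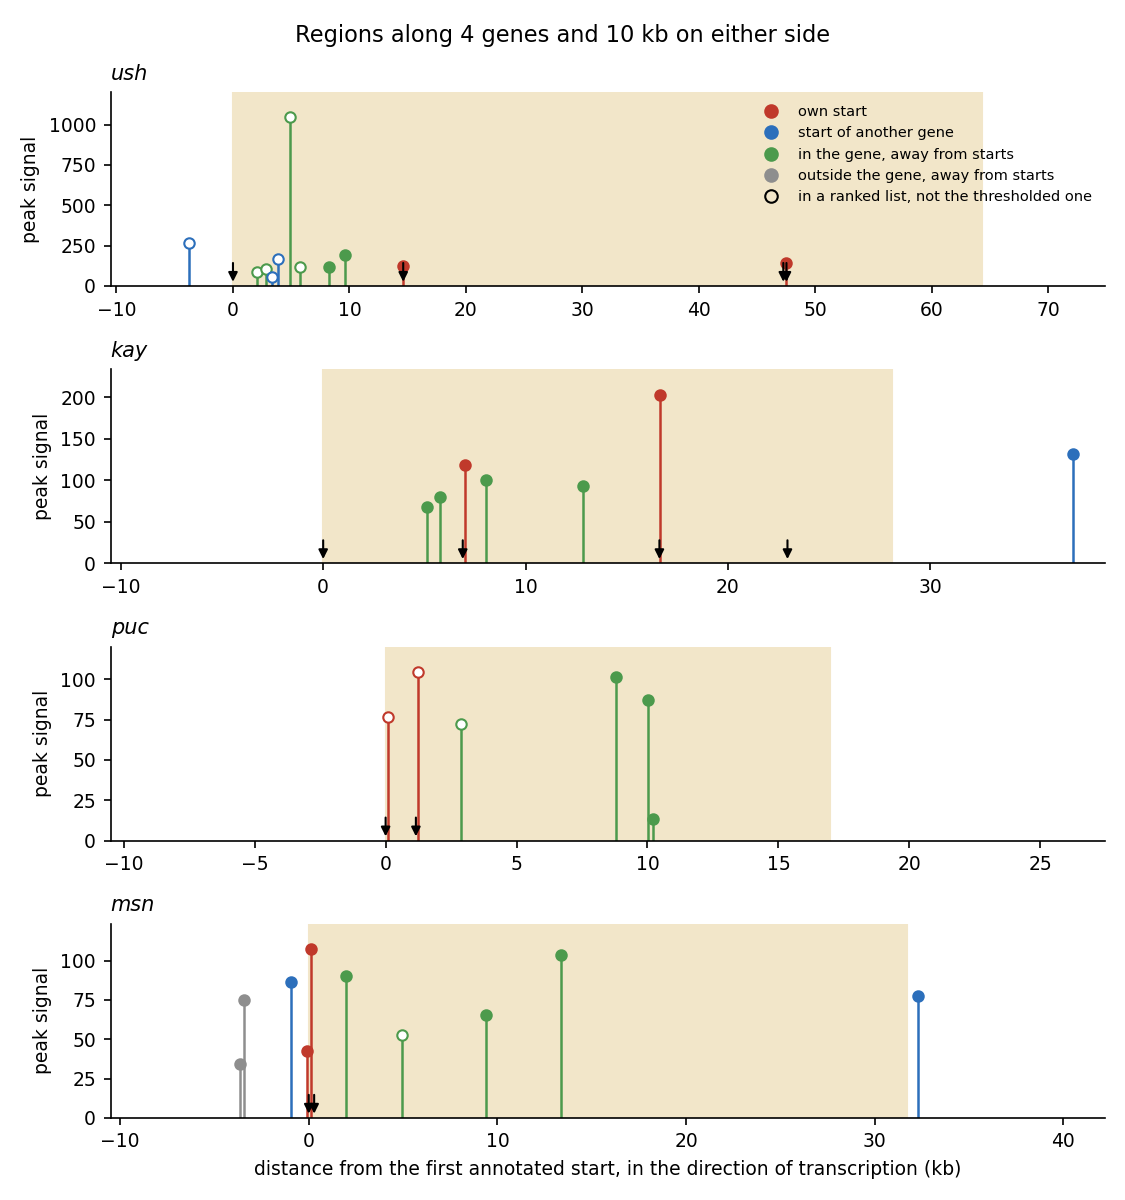
Signal of each region along ush, kay, puc and msn, against distance in kb from the first annotated start in the direction of transcription. Shading is the gene body, arrows mark annotated starts, colours give the place of the summit, and open circles are regions from a ranked list. In ush the regions crowd within the first 15 kb, with 1 at 1045, and in kay the tallest, at 203, sits on an inner start.

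Of the dorsal tissue genes, ush had the most regions and the strongest. The gene ush (FBgn0003963), which encodes a cofactor of GATA factors, spans 2L 476220 to 540560 on the plus strand, 64.3 kb, the longest of the 9. It had 11 regions, a number reached or passed by 0.372% of all genes and 2.22% of genes with a body over 10 kb. Of these 11 regions, 7 come from the ranked lists and not the thresholded one, and the number rests on them. The strongest had a signal of 1045, rank 8 of all 5195 regions, and its signals of 535 in replicate 1 and 524 in replicate 2 were nearly equal. Its summit lay in the first ush intron, 4860 bp inside the first start and 1392 bp upstream of cbt. The gene cbt (cabut), on the minus strand at 2L 476446 to 479688 within that intron, encodes a zinc-finger factor that is itself needed for dorsal closure. Distance alone does not tell which of these genes the region belongs to.

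This summit belonged to a run of 7 regions from 2L 472447 to 482004. The outermost on one side was 247 bp upstream of CG4297 and 3773 bp upstream of ush, with a signal of 268 and with 157 in replicate 1 and 104 in replicate 2. Another 3, at 85.6, 106 and 55.6, had their summits in the 5′ UTR of cbt. The next, 391 bp upstream of cbt, had 168, with 89.7 in replicate 1 and 100.3 in replicate 2. The last, 2316 bp upstream of cbt, had 115. None of the 7 was in the thresholded or the conservative list of the series or past the threshold in a replicate's list, and no thresholded region lay between them, although 4 of the 7 reached the score in the ranked list of each replicate. Genome-wide, 191 ranked regions past the score were in neither list, 53 of them on 2L and 117 on 3R. The sources used here do not say why.

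The strongest summits of the run are shown because they carry most of the signal at ush. They run over chr2L:472397-472497, chr2L:480029-480129 and chr2L:481030-481130 on the plus strand, with any GAGAG or its reverse complement in capitals. The window of the strongest summit held none of the 5 words searched and had 26.7% G and C, against a median of 45.5% over all regions.
ush, upstream of CG4297: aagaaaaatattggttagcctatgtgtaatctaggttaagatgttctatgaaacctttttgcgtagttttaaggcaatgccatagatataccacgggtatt
ush intron, upstream of cbt: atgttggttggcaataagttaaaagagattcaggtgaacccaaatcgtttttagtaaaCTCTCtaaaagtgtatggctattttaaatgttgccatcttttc
ush intron, strongest summit: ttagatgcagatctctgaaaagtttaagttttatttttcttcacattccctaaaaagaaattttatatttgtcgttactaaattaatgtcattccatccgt

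Beyond the run, 4 ush regions were in the thresholded list. A summit 4976 bp upstream of the ush-RB start had a signal of 192, with 83.6 in replicate 1 and 103 in replicate 2, past the threshold in both. Another intronic summit had 116 and passed in replicate 1. At the ush starts themselves, the summit 53 bp upstream of ush-RB had 122, with 105 in replicate 1 and 33.3 in replicate 2, and passed in replicate 1 only. The summit 2 bp upstream of ush-RC had 143, with 79.5 in replicate 1 and 70.4 in replicate 2, and passed in both. The window of the ush-RB summit held 16 matches to GAGAG or its reverse complement, overlapping ones counted. The start of ush-RD and ush-RE, beside cbt, had no region, its closest summit being 2047 bp off.

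The gene pnr (FBgn0003117), at 3R 16026079 to 16041796 on the plus strand, had 2 regions, both beyond its end and at starts of other genes. One lay 101 bp upstream of IKKbeta, a kinase gene of the immune response, and 148 bp upstream of CG5013, with a signal of 90.2, and had 50.1 in replicate 1 and 45.1 in replicate 2. The other was 55 bp inside a start of msps, a microtubule-associated protein gene, with 78.4. With regions at the starts of other genes left out, pnr had none. A ranked region 5 bp inside the first pnr start fell just below the score, at 823, with a signal of 76.4 and with 38.3 in replicate 1 and 27.8 in replicate 2.

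The gene peb (FBgn0003053), also known as hindsight, at X 4617564 to 4627206 on the plus strand, had 2 regions, both upstream. The one 231 bp from the start had a signal of 56.2, with 32.9 in replicate 1 and 25.3 in replicate 2, and the one 6915 bp upstream had 82.5, with 42.3 in replicate 1 and 41.4 in replicate 2. Neither passed the threshold in a replicate, and both were below the median of all regions. The start region, with rank 4679 of 5195, was the weakest of the start regions apart from the second summit of msn.

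Close to the threshold, the regions just inside were at pnr (score 835), msn (844 and 854) and kay (850), with signals of 78.4, 52.7, 65.2 and 67.9. Those just outside were at the pnr start (823), at a pair of overlapping regions downstream of puc (796, signals 37.1 and 75.6) and at Jra (750, signal 58.5). The signals on either side of the threshold overlapped. At an IDR of 0.05, a score of 540, the number of regions rose from 44 to 83, and the genes with a start region from 5 to 7. Those gained were pnr and Jra, with scores of 823 and 605 near their starts. The bsk window gained a region too (score 565), so all 9 genes had one. The shares of all genes at this setting are not given here.

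Of the 44 regions, 11 overlapped a thresholded region of both replicates, or 25% (95% exact binomial interval 13.2% to 40.3%, counting error only), against 30.6% of all 5195. A further 10 were in replicate 1 only, 5 in replicate 2 only, and 18 in neither. Among the 32 regions from the thresholded list the share in both was 34.4% (18.6% to 53.2%), and among all 4606 it was 34.3%. The 11 shared regions were 2 at msn, 1 at hep, 1 at puc, 4 at kay, 1 at Jra and 2 at ush, and none at pnr or peb. The 2 at msn are the overlapping pair at its start, so a single stretch counts there as 2. The intervals take regions as independent, which overlapping or neighbouring ones may not be. The 12 regions from the ranked lists overlapped no thresholded region of a replicate. Counted instead in each replicate's ranked list at the score, 16 of the 44 were in both (36.4%), against 32.2% of all regions. Of the 12, 5 were in both by that count. All 44 had a counterpart at some score in the ranked list of each replicate, as did 99.3% of all 5195, so this does not set them apart. The conservative list held 27 of the 44, or 61.4% (45.5% to 75.6%, counting error only), against 76.8% of all regions, and the difference was not tested. It lacked all 7 regions of the run at ush, which lie side by side. Of the 12 regions from the ranked lists it held 3 (25%), against 67.6% of all 589. Of the 32 from the thresholded list it held 24 (75%), against 78.0% of all 4606.

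**Figure D3:**
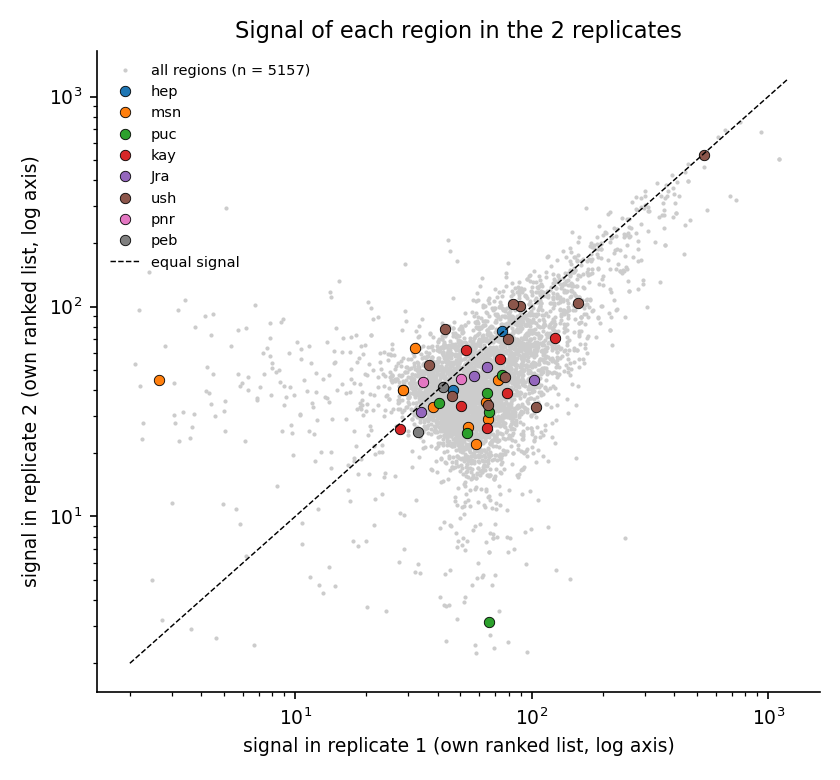
Signal of each region in replicate 1 and replicate 2, on log axes, from each replicate's own ranked list. Grey points are the 5157 regions with a value in both and coloured points the regions at the listed genes, and the dashed line marks equal signal. The strongest ush region lies near the line at 535 and 524, and the puc regions lie below it, as do most grey points.

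Gene length bears on these counts, since 6 of the 9 have a body over 10 kb. All 6 of the long genes had a region and 4 of the 6 (msn, puc, kay and ush) had one at a start, where 71.4% and 38% of the 1985 protein-coding genes of such length did. The median number of regions per window was 4 for the 9 genes, 1 over all genes and 2 over long genes. Per kb of window, the 9 pooled had 0.121 regions. The median of single genes was 0.0445 over all genes and 0.0318 over long genes, with 90th percentiles of 0.155 and 0.133. A pooled value and a median of single genes are unlike measures. Since the genes were listed with results of these data known, these are descriptions of the 9 and were not tested.

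**Figure D4:**
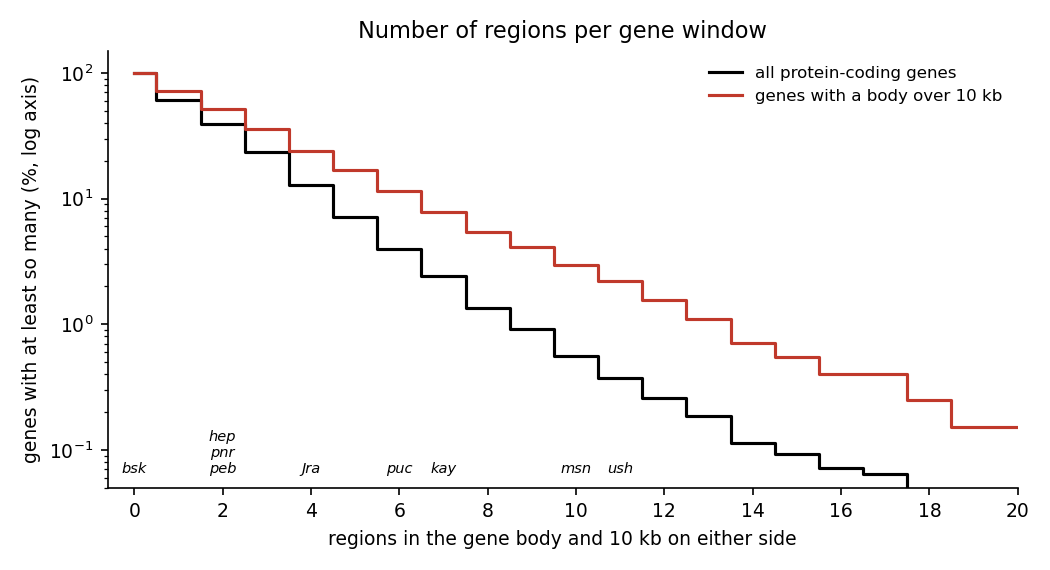
Percent of genes (log axis) with at least a given number of regions in the gene body and 10 kb on either side, for all protein-coding genes in black and for genes with a body over 10 kb in red. The 9 genes are written at their own number: ush at 11 and msn at 10 lie in the thin tail, and bsk is at 0. Of the 11 at ush, 7 come from the ranked lists and not the thresholded one.

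Short words known for 4 kinds of factor were searched on both strands within 50 bp of each summit. They were TGANTCA for AP-1, a pair of words for GATA factors, of which TGATAA is one and AGATAA the other, then GAGAG for GAGA factor, and TATCGAT for the DREF factor. Matches to different words may overlap. The AP-1 word was in 2 of the 44 windows (4.55%), against 2.31% of all regions, 2.58% of equal windows 500 bp away and 1.79% of windows centred on annotated starts. TGATAA was in 3 (6.82%, against 7.62% of all regions and 5.94% of start windows) and AGATAA in 2 (4.55%, against 5.31% and 4.23%). GAGAG was in 9 (20.5%), against 19.4% of all regions and 12.7% of both the flanks and the start windows. TATCGAT was in 0 of 44, against 3.66% of all regions and 8.81% of start windows. An approximate upper limit for that count, 3 in 44, is 6.82%, which is not an exact binomial limit. Each count is small, at 0 to 9 of 44, and a match of letters is not a binding site.

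Wider lists placed the 9 among other genes of the process. Of 23 effectors of dorsal closure, 23 had a region and 13 had one at a start, the strongest at chic (profilin, signal 158), sqh (myosin light chain, 157), cno (a junction adaptor, 154) and jar (myosin VI, 142). Of 19 inputs and kinases of the JNK cascade, 15 had a region and 10 a start region, led by Mkk4, a second JNK-activating kinase (490), the scaffold gene POSH (276), egr, which encodes the TNF ligand (260), and raw, which limits JNK signalling (178). Of 11 JNK targets, 7 had a region and 5 a start region, led by Atf3 (375), chic (158), the nuclear receptor gene ftz-f1 (123) and the matrix protease gene Mmp1 (112). The chic start region comes from a ranked list, and chic stands in both the effector and the target list.

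Of 12 genes of the amnioserosa and dorsal ectoderm, 8 had a region and 1 had one at a start, Doc3, a T-box gene of the amnioserosa, with a signal of 82.4. The share with a region was above the background of 61.2% in the effector and cascade lists. In the target list (7 of 11) and the dorsal tissue list (8 of 12) it was close to that background. The share with a start region was above the background of 20.1% in the effector, cascade and target lists. It was lower in the dorsal tissue list, where it rests on 1 gene of 12. These lists were not tested, and gene length was not matched. Whether their start regions also lie at a start of a neighbouring gene was not examined. The gene dpp stands in both the effector and the dorsal tissue list. Mkk4 (490), Atf3 (375), POSH (276) and egr (260) thus had stronger start regions than any of the 9 genes, whose strongest was at kay (203). Of the 2 kinase genes hep and bsk, neither had a start region.

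**Figure D5:**
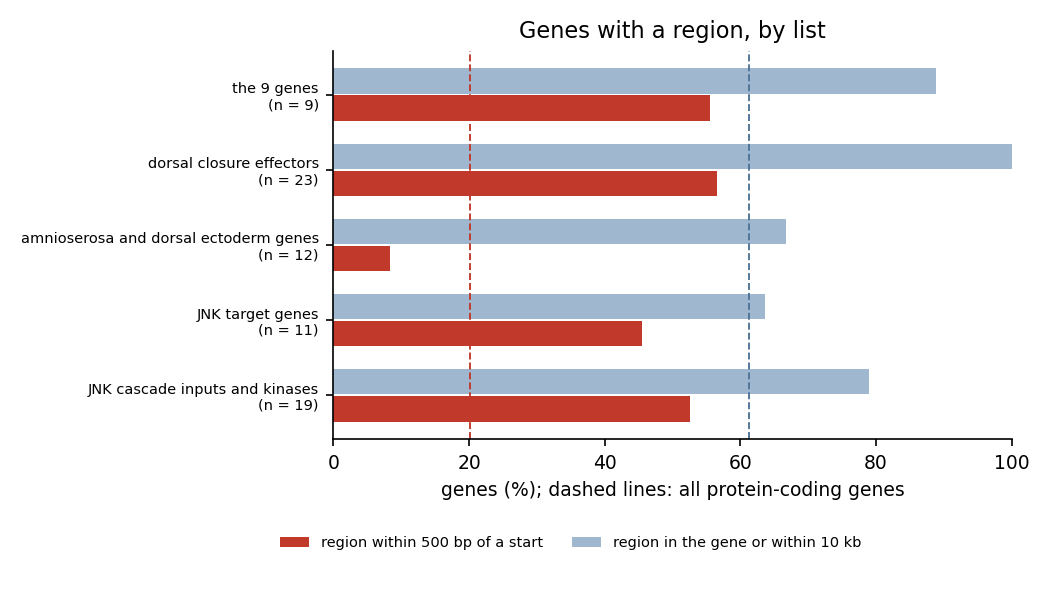
Percent of genes in each list with a region in the gene or within 10 kb (blue) and with one within 500 bp of a start (red). Dashed lines give the same shares over all 13968 protein-coding genes, 61.2% and 20.1%. All effector genes have a region, and 1 of 12 dorsal tissue genes has one at a start.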

How the data were processed

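The authors deposited lists of regions on dm6 for each replicate and for the series, per the labels and file headers; no aligner or caller is named in the sources used here. The score in the deposited lists is the IDR rescaled, capped at 1000, and matched that formula within 1 in at least 99.9944% of the regions of each series ranked list. The signal in the lists the authors deposited has no stated scaling. Ranks, medians and quartiles of signal were taken over the joined set, which mixes values from the thresholded and ranked lists of the series. Signals of the replicates, which come from separate lists, were set side by side and also given as a ratio. Whether these lists share a scale is not stated. The deposited ranked lists also give the global IDR as its −log10, which was used to read the score. Genes and starts came from Ensembl release 115 (BDGP 6.54) on the chromosome arms, X, Y and 4, and sequence from RefSeq's Release 6 assembly. A replicate's signal is that of the region of its own ranked list with the largest overlap, and overlap means at least 1 bp. Coordinates were moved from a count from 0 to a count from 1.

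With 1 group and no controls no test was made. Intervals are exact binomial, and the limit for a count of 0 is approximate, 3 divided by the number of windows. The genes, words and wider lists were chosen with earlier results of these data known. All listed genes are named, with up to 4 start regions of the highest signal from each wider list and the genes that share a printed region. Sequences were printed only from windows outside annotated exons, and none from 2R. Alternatives were other lists, thresholds, windows and overlaps. Counting steps were tested on simulated data. Python 3.11.15, numpy 2.4.6, scipy 1.17.1, pandas 2.3.3 and matplotlib 3.10.9 were used.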

Additional observations from a re-analysis of the deposited data

How the results depend on the processing

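In place of 44 regions, the windows held 25 when the conservative list was used instead of the thresholded and ranked lists, and 83 at an IDR of 0.05. In the thresholded list of 1 replicate alone the number was between 15 (without replicate 1) and 22 (without replicate 2). Adding each replicate's own ranked regions past the score, an alternative chosen after seeing the data, gave 22 for replicate 2 and 29 for replicate 1. Genes with a start region numbered 3 of 9 in place of 5 in the conservative list and in either replicate alone, and 4 in the thresholded list alone, which lacks those of puc. The number of genes with a region was between 6 and 9 in 11 alternatives. For these counts of genes, the matching shares of all genes are given here only for the main set and the thresholded list. Under the other alternatives the standing of the 9 genes against all genes cannot be read from them. With windows of 100 bp, the share of summits with GAGAG was 43.2%, where all regions had 35.1%. The other 30 of 40 alternatives moved their value by less than 1.5 times or within its interval. Merging overlapping regions gave 41, and leaving out regions at starts of other genes gave 34 regions at 7 genes. No paired analysis was possible because there is 1 group. At an IDR of 0.05, regions lay in the bsk window and at the Jra and pnr starts, but none at the starts of hep and bsk. The absence of regions from the bsk window and the Jra and pnr starts thus holds only at the stricter threshold. The lists give no read counts, so whether bsk, or the starts of hep, Jra and pnr, lacked enrichment or fell below what this depth could detect cannot be told apart.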
